A study of Homo sapiens with 3 samples.

Results

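The genes described here are 55 human genes of mitosis and of the G2/M transition. They were chosen by name for their known role, with earlier results of these data known. Genes with kinesin (KIF) symbols and polo-like kinases were left out of that choice, but CENPE, a kinesin of the kinetochore, is a member. All 55 were measured, by 114 probe sets that the platform annotation pairs with a single gene symbol, among 19775 genes in all. RNA came from SKBR3 cells, a human breast cancer line known for amplified ERBB2 and for expressing GPER1 but not oestrogen receptor α. The cells first stood for 4 h in stripped serum (10%, charcoal treated) and were then given 0.1% ethanol (the vehicle), 1 µM estradiol or 1 µM of the peptide ERα17p, which is derived from the sequence of oestrogen receptor α, and RNA was taken at 3 h. Each condition had 1 array, 3 in all. The series is titled a time course, but each sample is labelled 3 h, and nothing says whether the dishes came from separate experiments. No value below therefore has an error, a replicate check or a p-value.

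A dividing cell builds up the products of these genes during G2, uses them to condense, attach and part its chromosomes, and then destroys many of them as mitosis ends. Cyclins A and B switch on the kinase CDK1; Aurora kinases, kinetochore proteins and spindle proteins carry out chromosome attachment and movement; the checkpoint kinases BUB1 and TTK hold back the APC/C, the ubiquitin ligase that ends mitosis, until every chromosome is attached. Much of the transcription of these genes runs through promoters with CCAAT boxes, which bind NF-Y, and with the cell cycle homology region or CHR, which binds the MuvB complex in its repressive form (DREAM) and in its activating forms with B-MYB and FOXM1. In a growing culture their RNA level moves with the share of cells in G2 and mitosis, and on bulk RNA fewer such cells and less RNA per cell cannot be told apart.

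Promoter sequences from RefSeq (GRCh38.p14, 250 bases before to 50 bases after the start site) were at hand for 44 of the 55 members, 37 of them with 1 entry. AURKA, BIRC5, BUB3, CDCA2, FAM83D, FOXM1, PBK, RACGAP1, TPX2, TTK and UBE2C had no entry. Below are the 4 members that differed most from the array labelled vehicle (mean of both treatments) and the 2 that differed least, among those with 1 entry. They are written 5′ to 3′ on the gene's strand, and capitals mark the CHR letters TTTGAA or their reverse complement TTCAAA and the CCAAT box or its reverse complement ATTGG. No 2 matches overlapped in these 6.
PSRC1, chr1:109283096-109283395, minus strand: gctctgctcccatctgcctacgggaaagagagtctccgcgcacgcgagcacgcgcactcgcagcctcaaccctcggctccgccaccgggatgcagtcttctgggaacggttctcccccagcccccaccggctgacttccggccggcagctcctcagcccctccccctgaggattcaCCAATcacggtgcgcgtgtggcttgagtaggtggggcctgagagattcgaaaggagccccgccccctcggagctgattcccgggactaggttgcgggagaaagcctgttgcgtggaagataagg
CCNF, chr16:2429197-2429496, plus strand: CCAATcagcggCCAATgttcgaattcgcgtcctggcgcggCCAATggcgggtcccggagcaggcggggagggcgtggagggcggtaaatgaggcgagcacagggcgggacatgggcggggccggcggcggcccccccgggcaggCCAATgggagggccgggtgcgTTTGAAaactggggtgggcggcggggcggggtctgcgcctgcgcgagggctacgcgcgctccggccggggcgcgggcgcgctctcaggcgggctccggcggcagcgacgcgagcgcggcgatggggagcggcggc
HJURP, chr2:233854486-233854785, minus strand: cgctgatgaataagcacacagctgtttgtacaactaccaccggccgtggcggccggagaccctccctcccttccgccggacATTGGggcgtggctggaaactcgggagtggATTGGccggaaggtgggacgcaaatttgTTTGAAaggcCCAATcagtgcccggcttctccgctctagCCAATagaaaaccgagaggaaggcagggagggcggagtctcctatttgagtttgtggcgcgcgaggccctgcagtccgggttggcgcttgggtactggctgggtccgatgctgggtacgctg
BUB1B, chr15:40160819-40161118, plus strand: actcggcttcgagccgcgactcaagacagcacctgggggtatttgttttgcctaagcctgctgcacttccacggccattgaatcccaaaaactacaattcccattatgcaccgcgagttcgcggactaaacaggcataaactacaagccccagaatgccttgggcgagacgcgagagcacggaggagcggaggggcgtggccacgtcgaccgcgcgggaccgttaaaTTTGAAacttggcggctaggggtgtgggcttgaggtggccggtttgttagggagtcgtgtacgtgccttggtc
SGO1, chr3:20186157-20186456, minus strand: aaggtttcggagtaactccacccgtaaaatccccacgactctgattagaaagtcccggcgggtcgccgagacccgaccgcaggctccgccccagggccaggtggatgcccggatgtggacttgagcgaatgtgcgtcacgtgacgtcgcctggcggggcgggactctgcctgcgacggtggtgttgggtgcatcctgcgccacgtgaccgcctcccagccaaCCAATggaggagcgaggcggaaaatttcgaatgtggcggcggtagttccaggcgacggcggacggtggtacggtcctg
CCNB2, chr15:59104896-59105195, plus strand: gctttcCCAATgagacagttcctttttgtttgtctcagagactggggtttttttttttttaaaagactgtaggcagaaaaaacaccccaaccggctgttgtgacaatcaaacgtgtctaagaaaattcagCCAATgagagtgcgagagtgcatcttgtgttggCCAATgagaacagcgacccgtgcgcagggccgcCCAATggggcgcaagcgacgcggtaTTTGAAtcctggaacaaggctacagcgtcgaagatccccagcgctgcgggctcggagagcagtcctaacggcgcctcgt

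A CHR match stood in 28 of the 44 member promoters (63.6%), against 18.2% of the 27305 genes in the whole table and 6.90% of 29 genes of G1/S and DNA replication. Other mitotic lists had like or higher shares: 78.6% of 14 mitotic kinesins and polo-like kinases, 85.7% of 7 condensin genes and 64.7% of 17 other cell cycle regulated mitotic genes, while kinetochore genes outside the members had 34.8%. In 17 members (38.6%) such a match began within the last 50 bases before the start site, as in BUB1B at -23 and CCNB2 at -29, against 3.22% of all genes. A CCAAT box stood in 35 of 44 (79.5%), against 39.7% of all genes and 62.1% of the G1/S genes, and at least 2 stood in 24 (54.5%), against 12.9% of all genes and 48.3% of the G1/S genes. CCNF and HJURP each had 4 CCAAT boxes and a CHR match, and PSRC1 had 1 CCAAT box and no CHR match. A match describes letters and is not a measured binding site.

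**Figure D1:**
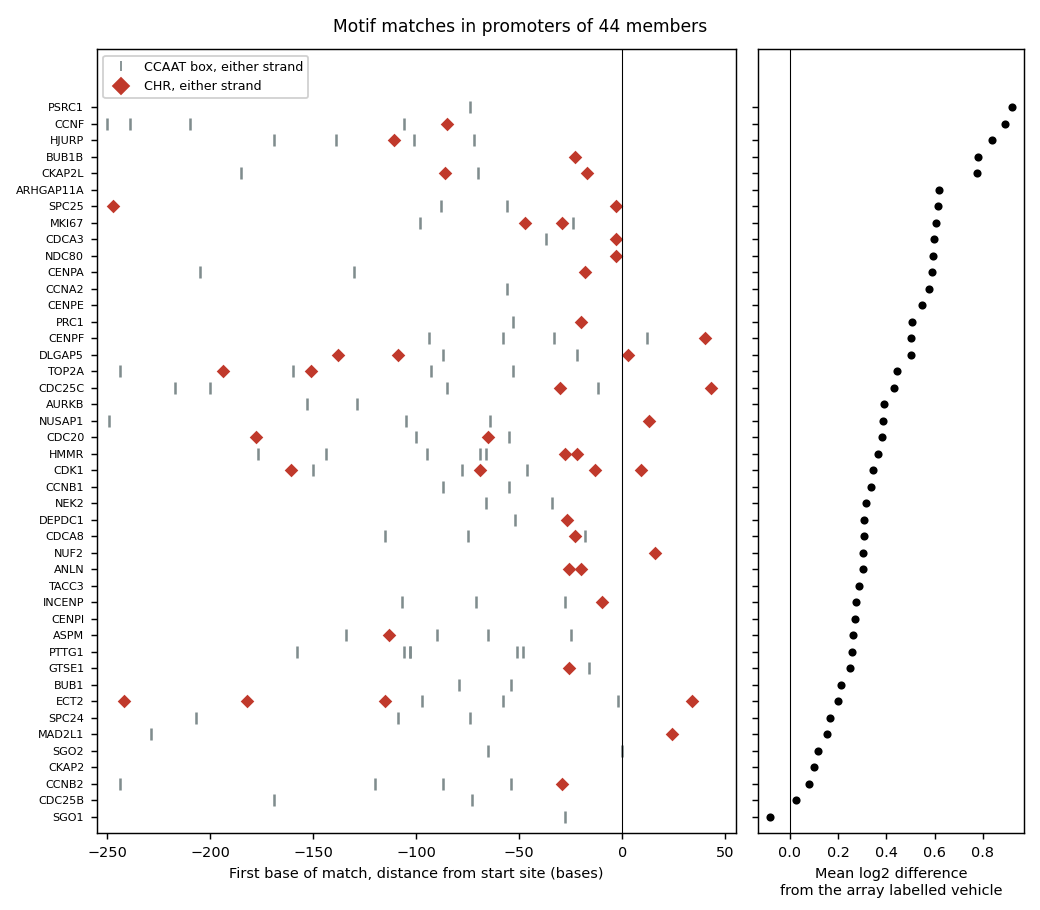
Left, each match of the CHR (diamonds) and the CCAAT box (ticks) on either strand, by the distance of its first base from the start site in bases, for the 44 members with a promoter entry; matches of all entries are overlaid for the 7 members with several. Right, the mean log2 difference of both treated arrays from the array labelled vehicle; CHR matches occur from the high end of that order (CCNF) to its low end (CCNB2).

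Values are log2 distances from a baseline that had been taken off each probe set before deposit, so a gene can be compared between arrays but its expression level cannot be read. No source used here states the log base, which was taken as 2. A gene's value is the median over its probe sets, and "higher" or "lower" means at least 1.5-fold (0.585 log2 units). The array labelled vehicle stood apart from the other two: its standard deviation over 54675 probe sets was 0.27, against 0.12 with estradiol and 0.13 with ERα17p, and 465 genes lay 1.5-fold above the baseline on it and 60 below. The gap between 3′ and 5′ probe sets widens as RNA degrades, but here it can be read only relative to the gap of the baseline. For ACTB this relative gap was 0.30 on the array labelled vehicle, against 0.02 with estradiol and -0.04 with ERα17p. For GAPDH it was 0.05, 0.01 and -0.03 in the same order. Whether these features of that array have a part in the member values was not tested. Since levels cannot be read, the identity of the cells could not be checked by markers. Of 9 luminal epithelial markers (such as ERBB2 and KRT8), 5 leukocyte, 5 endothelial and 6 fibroblast markers, none differed by 1.5-fold in any comparison, and the list medians on the array labelled vehicle were -0.04, 0.07, -0.12 and -0.02.

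The mitotic genes were low on the array labelled vehicle and close to the baseline on both treated arrays. On the log2 scale their median distance from the baseline was -0.36 for vehicle, -0.02 with estradiol and 0.04 with ERα17p, where all genes had -0.03, -0.0046 and 0.0058. On the array labelled vehicle 52 of 55 members lay below the baseline (59.3% of all genes did), and 9 lay below it by at least 1.5-fold (0.303% of all genes). The array labelled vehicle was the lowest of the 3 for 53 of 55 members, against 45.5% of all genes. No member lay 1.5-fold from the baseline on the estradiol array (0.0556% of all genes did) or on the ERα17p array (0.0708%).

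Estradiol against the array labelled vehicle gave a member median of 0.35 (1.27-fold), against 0.03 over all genes. Of the 55 members 53 lay above 0 (56.1% of all genes did), 7 were higher by at least 1.5-fold (12.7%, against 0.809% of all genes) and 0 were lower (2.93% of all genes were). ERα17p against the same array gave a median of 0.40 (1.32-fold), again against 0.03. Here 54 members lay above 0 (58.0% of all genes), 13 were higher (23.6%, against 0.582%) and 0 were lower (2.14% of all genes were). Both comparisons use the same control array and are not separate evidence. With the baseline in place of the array labelled vehicle, 0 members passed 1.5-fold for either agent and the medians were -0.02 and 0.04, so each of these calls rests on the array labelled vehicle.

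**Figure D2:**
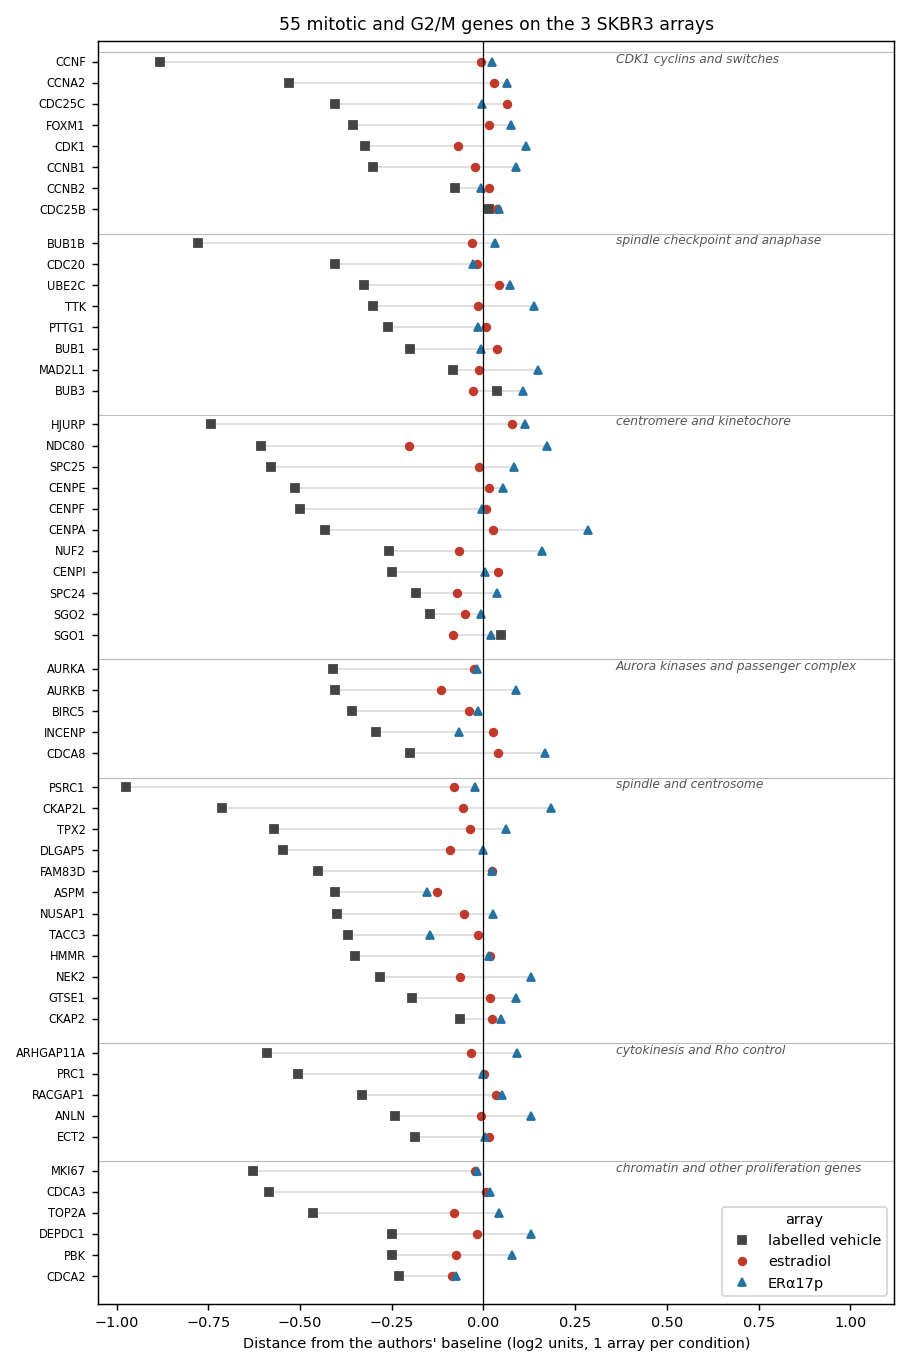
Distance from the authors' baseline in log2 units (x axis) for each of the 55 members on the array labelled vehicle (squares), the estradiol array (circles) and the ERα17p array (triangles), grouped by role and ordered by the value on the array labelled vehicle. Squares lie left of both other marks except for BUB3 and SGO1, and PSRC1 (-0.97) and CCNF (-0.88) are farthest left.

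**Figure D3:**
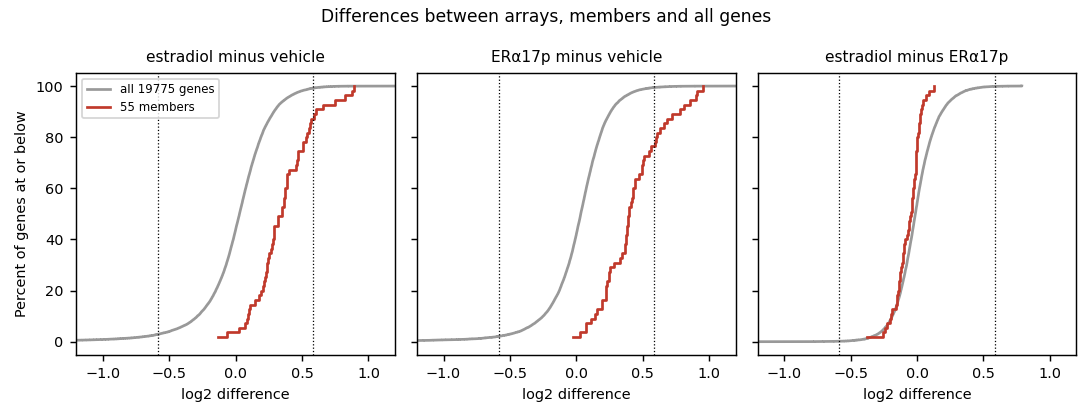
Cumulative percent of genes (y axis) at or below each log2 difference (x axis, drawn from -1.2 to 1.2) for the 55 members and for all 19775 genes; dotted lines mark 1.5-fold. The member curve lies to the right of the curve of all genes in both comparisons with the array labelled vehicle (medians 0.35 and 0.40 against 0.03), and near it between the treated arrays (-0.04 against -0.01).

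Among the cyclins and switches of CDK1, all 8 members lay above 0 in both comparisons with the array labelled vehicle, with medians of 0.32 and 0.41. CCNF encodes cyclin F, which does not activate a kinase but is the substrate-binding part of an SCF ubiquitin ligase. It had -0.88 on the array labelled vehicle, -0.01 with estradiol and 0.02 with ERα17p, so that the treated arrays were 1.83-fold and 1.87-fold higher, and its 2 probe sets ran from 0.79 to 0.96 with estradiol. CCNA2, cyclin A2, had -0.53, 0.03 and 0.06 on the 3 arrays in the same order, and differences of 0.56 with estradiol and 0.59 with ERα17p. Only the second of these passed the threshold, at 1.51-fold, just inside it, while CENPE at 0.57 with ERα17p and SPC25 at 0.57 with estradiol lay just outside. With arrays centred on their medians the ERα17p difference of CCNA2 was 0.56 and no longer passed, and with the first of its 2 probe sets alone the estradiol difference was 0.69 and did. CDK1 itself (0.25 and 0.44), cyclin B1 (CCNB1, 0.28 and 0.39), the activating phosphatase gene CDC25C (0.47 and 0.40) and FOXM1, which encodes a transcription factor of the G2/M programme (0.37 and 0.43), lay above 0 below the threshold.

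The other 2 genes of that role hardly differed. CDC25B, a phosphatase gene that acts at the entry into mitosis, had 0.02, 0.04 and 0.04, and the 3 arrays were within 0.03 log2 units of each other. Cyclin B2 (CCNB2) had -0.08, 0.01 and -0.01. Its 3 probe sets ran from 0.05 to 0.27 with ERα17p. CCNB2 carries a CHR match and 4 CCAAT boxes in the promoter printed above, as CCNF does.

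The spindle checkpoint and anaphase genes ran from BUB1B to BUB3. BUB1B, which encodes the checkpoint protein BubR1, had -0.78 on the array labelled vehicle, -0.03 with estradiol and 0.03 with ERα17p, and differed by 0.75 and 0.81 (1.68-fold and 1.75-fold). The checkpoint kinase gene TTK (0.29 and 0.44), the APC/C activator gene CDC20 (0.39 and 0.38), its ubiquitin-conjugating enzyme gene UBE2C (0.37 and 0.40) and the securin gene PTTG1 (0.27 and 0.25) followed below the threshold. MAD2L1, the MAD2 checkpoint gene, had 0.07 and 0.23. BUB3 had 0.04, -0.03 and 0.11, and differences of -0.06 with estradiol and 0.07 with ERα17p; it is also read by the most probe sets of any member, 6, which ran from -0.27 to 0.20 with estradiol. The median of the 8 was 0.28 with estradiol and 0.31 with ERα17p.

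BUB1 shows how probe sets of a gene can differ. Its value was -0.20 on the array labelled vehicle, 0.04 with estradiol and -0.01 with ERα17p, but its 5 probe sets ran from -0.06 to 0.48 with estradiol and from -0.13 to 0.70 with ERα17p. Between them 4 of 5 lay above 0 in each comparison.

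Of 11 centromere and kinetochore genes, 10 lay above 0 in each comparison with the array labelled vehicle, with medians of 0.40 and 0.50, the largest of the 7 roles. HJURP, the chaperone that places the centromeric histone CENPA, had -0.74 on the array labelled vehicle, 0.08 with estradiol and 0.11 with ERα17p and differences of 0.82 with estradiol and 0.86 with ERα17p, 1.77-fold and 1.81-fold. CENPA itself had -0.43, 0.03 and 0.28; its difference was 0.46 with estradiol and 0.72 with ERα17p. The microtubule-binding NDC80 complex has 4 subunits, all of them members. NDC80 had -0.61, -0.20 and 0.17, with differences of 0.40 with estradiol and 0.78 with ERα17p, and SPC25 had -0.58, -0.01 and 0.08, with 0.57 with estradiol and 0.66 with ERα17p. NUF2 differed by 0.19 and 0.42, and SPC24 by 0.11 and 0.22.

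SPC24 had 2 probe sets of opposite sign, at -0.14 and 0.36 with estradiol and at -0.10 and 0.54 with ERα17p, around values of -0.18, -0.07 and 0.04 on the 3 arrays. The kinetochore motor gene CENPE differed by 0.53 and 0.57, CENPF by 0.51 and 0.50 and CENPI by 0.29 and 0.25. SGO1 and SGO2 encode shugoshins, which protect centromeric cohesion. SGO1 had 0.05 on the array labelled vehicle, -0.08 with estradiol and 0.02 with ERα17p and was the member for which the array labelled vehicle was the highest of the 3. Its differences were -0.13 and -0.03. The 2 probe sets of SGO1 disagreed, at -0.28 and 0.02 with estradiol and at -0.22 and 0.16 with ERα17p. On the array labelled vehicle they had 0.22 and -0.13, the highest of the 3 arrays for the former and the lowest for the latter. SGO2 differed by 0.10 and 0.14.

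None of the 5 genes of the Aurora kinases and the chromosomal passenger complex passed 1.5-fold, where 0.809% and 0.582% of all genes were higher. With 5 genes this count does not set the role apart from all genes. All 5 lay above 0, where 56.1% of all genes did with estradiol and 58.0% with ERα17p. The Aurora kinase genes AURKA (0.38 and 0.39) and AURKB (0.29 and 0.49), the scaffold gene INCENP (0.32 and 0.23), survivin (BIRC5, 0.32 and 0.34) and borealin (CDCA8, 0.24 and 0.37) lay within a narrow band. Survivin was read by 4 probe sets, all above 0, from 0.28 to 0.51 with estradiol.

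All 12 spindle and centrosome genes lay above 0, with medians of 0.36 and 0.42. PSRC1, a microtubule-associated protein gene, had the widest difference of all members. It had -0.97 on the array labelled vehicle, -0.08 with estradiol and -0.02 with ERα17p, with differences of 0.89 with estradiol and 0.95 with ERα17p (1.86-fold and 1.93-fold), read by 1 probe set. CKAP2L, which encodes a spindle protein, had -0.71, -0.06 and 0.19, with differences of 0.66 with estradiol and 0.90 with ERα17p. TPX2, the activator of Aurora A, had -0.57, -0.04 and 0.06, and passed the threshold with ERα17p (0.63) but not with estradiol (0.54). DLGAP5 (0.46 and 0.55), FAM83D (0.47 and 0.47), NUSAP1 (0.35 and 0.43) and HMMR (0.37 and 0.36), all spindle genes, lay lower. NEK2 (0.22 and 0.41), GTSE1 (0.21 and 0.28), ASPM (0.28 and 0.25) and TACC3 (0.35 and 0.22) had the smaller differences of this role beside CKAP2. CKAP2, a relative of CKAP2L, had -0.06, 0.02 and 0.05 and differences of 0.09 with estradiol and 0.11 with ERα17p.

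The 5 cytokinesis genes had medians of 0.36 and 0.38 and ran from 0.20 to 0.55 with estradiol and from 0.19 to 0.68 with ERα17p. The RhoGAP gene ARHGAP11A had -0.59 on the array labelled vehicle, -0.04 with estradiol and 0.09 with ERα17p, and passed the threshold with ERα17p (0.68) but not with estradiol (0.55). PRC1, which bundles the central spindle, differed by 0.51 in each comparison, RACGAP1 by 0.36 and 0.38, the anillin gene ANLN by 0.23 and 0.37 and ECT2, the RhoA exchange factor that starts the furrow, by 0.20 and 0.19.

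Among the 6 remaining members, MKI67, which encodes the proliferation antigen Ki-67, had -0.63 on the array labelled vehicle, -0.02 with estradiol and -0.02 with ERα17p, with differences of 0.60 with estradiol and 0.61 with ERα17p and all 4 probe sets between 0.35 and 0.68 with estradiol. Neither call of MKI67 held with the mean over probe sets (0.55 and 0.57) or with centred arrays (0.581 and 0.58), and the estradiol call was also lost with the median of the differences of single probe sets. CDCA3, which encodes a protein of mitotic entry, had -0.59, 0.01 and 0.02, with 0.59 with estradiol and 0.60 with ERα17p, and its 2 probe sets lay between 0.55 and 0.65 with ERα17p. Its calls were lost with centred arrays (0.57 in each comparison), with estradiol also for the first probe set alone (0.58), and with ERα17p also without probe sets that can read several transcripts (0.55). TOP2A, the gene of topoisomerase IIα, differed by 0.38 and 0.51; 1 of its 3 probe sets had the largest difference among all 114, 1.44 with estradiol and 1.10 with ERα17p, an observation made after its values were seen. DEPDC1, PBK and CDCA2 had 0.23, 0.17 and 0.15 with estradiol and 0.38, 0.33 and 0.16 with ERα17p.

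Medians were larger among members read by fewer probe sets. Of the 114 probe sets, 102 lay above 0 with estradiol (89.5%, against 53.7% of 41091 named probe sets) and 106 with ERα17p (93.0%, against 55.7%). For 21 of the 30 members read by several probe sets, all of them lay above 0 in both comparisons. The 25 members read by 1 probe set had medians of 0.40 and 0.47 and held 4 of the 7 genes called with estradiol and 9 of the 13 called with ERα17p, and the 17 members read by 3 or more had 0.25 and 0.28. Over all genes 1.49% of those with 1 probe set and 0.200% of those with 3 or more were higher with estradiol. With ERα17p these shares were 0.973% and 0.182%. Among members the same shares were 16% and 5.88% with estradiol and 36% and 5.88% with ERα17p.

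**Figure D4:**
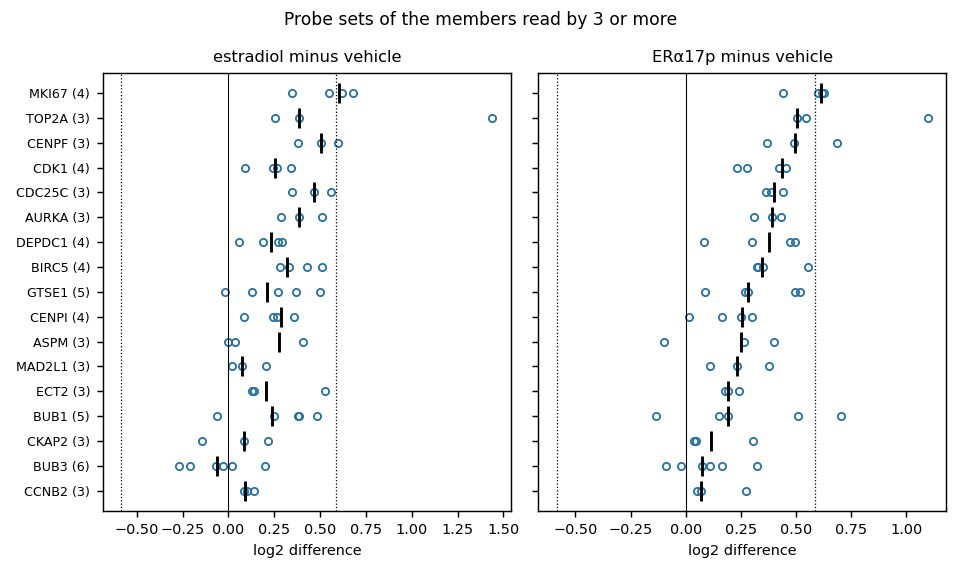
Log2 difference (x axis) of each probe set (open circles) of the 17 members read by 3 or more, whose number stands in brackets; the bar marks the gene's value and dotted lines mark 1.5-fold. Probe sets of MKI67 lie between 0.35 and 0.68 with estradiol, whereas those of BUB3 lie between -0.27 and 0.20.

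The treated arrays were then compared with each other, which leaves out the array labelled vehicle. The member median of estradiol minus ERα17p was -0.04, against -0.01 over all genes, and 42 of 55 members lay below 0 (53.9% of all genes did). This lean was not particular to the members. Below 0 lay 28 of 33 genes of G1/S and DNA replication (median -0.09) and 9 of 9 cohesin genes (-0.10). So did 24 of 28 kinetochore genes outside the members (-0.09) and all 14 mitotic kinesins and polo-like kinases (-0.06). Of 13 APC/C subunits 7 lay below 0 (-0.01), and of 9 MuvB, B-MYB and pocket protein genes 4 (0.03). No member differed by 1.5-fold in either direction, where 0.147% of all genes were higher and 0.207% lower. NDC80 (-0.38), CENPA (-0.26), CKAP2L (-0.24), NUF2 (-0.23) and AURKB (-0.20) were farthest below 0, and TACC3, a spindle gene, farthest above (0.13). The ERα17p array was the highest of the 3 for 41 members and the estradiol array for 13. How often each array was the highest over all genes was not counted. Without replicates it is unknown whether differences of this size exceed those between 2 dishes of one condition.

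Other genes of cell division, from lists chosen with earlier results of these data known, differed in how far they went along. The 14 mitotic kinesins and polo-like kinases all lay above 0, with medians of 0.31 and 0.47. With estradiol 2 were higher (14.3%, against 0.809% of all genes) and with ERα17p 3 (21.4%, against 0.582%). Among them were KIF23 (0.85 and 0.93), a motor of the central spindle, and PLK1 (0.60 and 0.62). The 8 condensin subunits all lay above 0 as well (0.15 and 0.28), and NCAPG was higher with ERα17p (0.63). Of 18 other cell cycle regulated mitotic genes, 17 lay above 0 (0.18 and 0.28), such as BORA, an activator of PLK1 (0.47 and 0.50), and FBXO5, an APC/C inhibitor gene (0.36 and 0.58). The exception, MASTL, the Greatwall kinase gene, was lower with estradiol (-0.72) and had -0.42 with ERα17p. Of all genes 2.93% were lower with estradiol and 2.14% with ERα17p. Near these shares lie 1 lower gene of 18 and the 0 calls among 28 genes that follow. In 28 kinetochore genes outside the members, medians were 0.07 and 0.16 with 0 called either way; OIP5, which acts with HJURP in loading CENPA, had 0.31 and 0.41, and MIS12 -0.45 and -0.33.

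Parts of the machinery that are not known for strong cell cycle regulation of their RNA lay near 0. The 13 APC/C subunits had medians of -0.05 and -0.01, and the 9 cohesin genes -0.06 and 0.05, with 0 called; the lowest were CDC23 (-0.38 and -0.14) and the cohesin loader gene NIPBL (-0.37 and -0.21). Genes of G1/S and DNA replication, which peak earlier in the cycle, had medians of 0.04 and 0.09 over 33 genes, also with 0 called. Farthest from 0 were RRM2, a ribonucleotide reductase gene (0.38 and 0.43), and, in the opposite direction, GINS3, a gene of the replicative helicase (-0.46 and -0.30). Over all genes 0.809% were higher and 2.93% lower with estradiol, and 0.582% and 2.14% with ERα17p. In lists of this size 0 calls lie near those shares. The 9 genes of MuvB, B-MYB and the pocket proteins had 0.13 and 0.17, with MYBL2, the B-MYB gene, at 0.35 and 0.25.

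**Figure D5:**
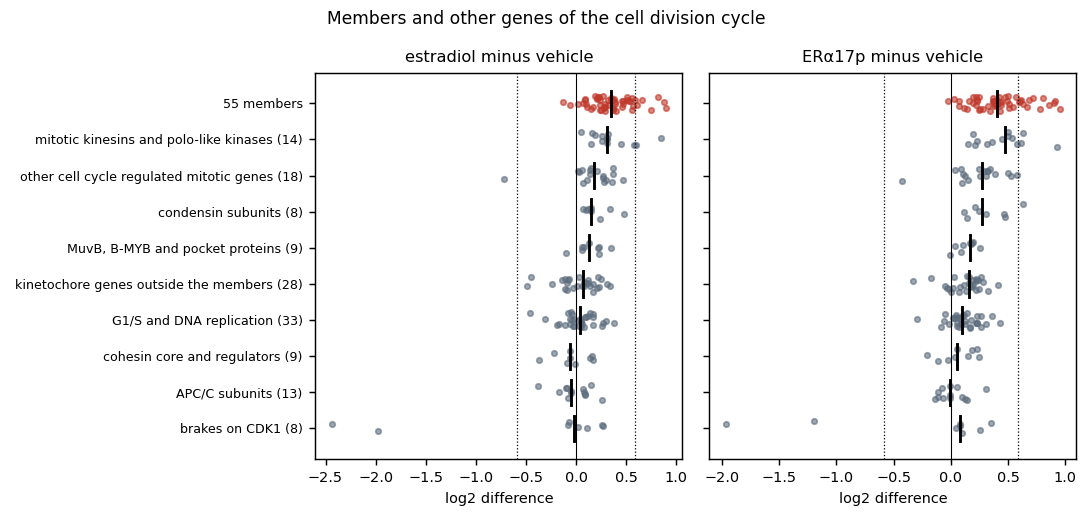
Log2 difference from the array labelled vehicle (x axis) with estradiol (left) and ERα17p (right) for the 55 members and for 9 other lists, with the number of genes measured in brackets; each point is a gene, bars are medians and dotted lines mark 1.5-fold. Members and mitotic kinesins lie highest (medians from 0.31 to 0.47), APC/C and cohesin genes near 0, and 2 brakes on CDK1 far below 0.

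Of 8 measured genes that restrain CDK1, 2 were lower on both treated arrays (25%). Of all genes 2.93% were lower with estradiol and 2.14% with ERα17p. GADD45A, a stress-induced gene whose product can inhibit CDK1 and cyclin B1, had 2.32 on the array labelled vehicle, -0.11 with estradiol and 0.36 with ERα17p. CDKN1A, the gene of the CDK inhibitor p21, had 1.30, -0.68 and 0.10. The other 6 lay within 1.5-fold, among them the CDK1-inhibiting kinase gene PKMYT1 (0.27 and 0.35) and SFN, the gene of 14-3-3σ (0.26 and 0.25). A part of GADD45A or CDKN1A in the member values was not tested.

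Members with and without a CHR match overlapped in their differences from the array labelled vehicle, with higher medians for those with a match. The 28 members with a CHR match had medians of 0.39 with estradiol and 0.43 with ERα17p, and 6 and 9 of them were higher. The 16 without had 0.27 and 0.25, and 1 and 3 were higher. Of all genes 0.809% and 0.582% were higher. With estradiol the differences ran from 0.07 to 0.88 with a match and from -0.13 to 0.89 without. The upper end without a match was PSRC1 alone, and the next such member was CCNA2 at 0.56. The 11 members with no promoter entry had medians of 0.36 with estradiol and 0.39 with ERα17p. With TTTAAA added to the CHR letters, the 33 members with a match had 0.37 and 0.42. Members with a CCAAT box (35) and without (9) had medians of 0.32 and 0.35 with estradiol and of 0.40 and 0.42 with ERα17p.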

How the data were processed

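Total RNA of 3 SKBR3 samples was hybridised to 1 Affymetrix array each, per the labels. The authors computed the deposited values with RMA, per the submitters' processing notes; no source used here gives its version, software or log base. The authors deposited these values on a log scale read here as log2, after RMA, per the submitters' processing notes. Column medians near 0, and exact mirror pairs around 0 in 3979 of 54675 probe sets (7.28%; tolerance 1e-06, values over 0.001), point to centring of each probe set on a median over more arrays than these 3; the further arrays were not used here. Differences between arrays survive centring and levels do not, so no filter on low signal was possible and signal over background is unknown.

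Gene values rest on the 41091 probe sets with a single symbol; left out were 62 controls, 1801 with several symbols and 11721 unnamed here. Symbols were checked by Entrez ID against GRCh38.p14 (41037 matched, 0 changed). Gene values are medians over probe sets, and log2 differences between arrays were called at 1.5-fold, with no test. Members, lists and rules were chosen with earlier results of these data known. Values on all 3 arrays are given for members called in a comparison, for the 5 with the smallest mean difference from vehicle and for those with probe sets of opposite sign spread over more than 1.5-fold, and up to 4 genes of each other list were named by size. Promoter motifs were searched on both strands, and a gene with several entries counts as holding a match if any entry does. The calling step was checked on simulated arrays whose noise was set from the difference between the treated arrays. The array labelled vehicle had a wider spread (standard deviation 0.27), so this check did not gauge false calls against it. Python 3.11.15, numpy 2.4.6, pandas 2.3.3 and matplotlib 3.10.9 were used. Alternatives were the mean over probe sets, the first probe set, single-gene probe sets, centred arrays, genes with 2 or more probe sets, a 2-fold threshold, the baseline as reference and a wider CHR motif. Precision is limited by there being 1 array per condition.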

Additional observations from a re-analysis of the deposited data

How the results depend on the processing

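With the baseline in place of the array labelled vehicle, the member median turned from 0.35 to -0.015 for estradiol and moved from 0.40 to 0.041 for ERα17p, and 0 members were called for either. The signs of called genes turned too: for estradiol PSRC1 to -0.079, CKAP2L to -0.056, BUB1B to -0.030, MKI67 to -0.024 and CCNF to -0.0062, and for ERα17p PSRC1 to -0.023 and MKI67 to -0.018. This follows from the construction, since the treated arrays lie close to that baseline. At 2-fold, 0 members were called against the array labelled vehicle, where 7 and 13 were at 1.5-fold. Of all genes 0.905% with estradiol and 0.753% with ERα17p differed by 2-fold in either direction. Among members with at least 2 probe sets (30), 3 were called with estradiol and 4 with ERα17p. Of all genes with at least 2 probe sets, 2.89% and 2.22% were called in either direction. The member calls were all higher. Higher with estradiol were 0.219% of all genes with 2 probe sets and 0.200% of those with 3 or more. With ERα17p these shares were 0.299% and 0.182%. The mean over probe sets, the first probe set, probe sets without the suffixes for several transcripts (43 members), arrays centred on their medians and the median of the differences of single probe sets, an alternative chosen after seeing the data, gave from 5 to 7 calls with estradiol and from 9 to 13 with ERα17p. Over all genes, from 3.68% to 5.14% were called in either direction with estradiol and from 2.64% to 3.56% with ERα17p. The share that was higher was not counted separately under these alternatives. In the main setting it was 0.809% and 0.582%. Under some of these alternatives MKI67, CDCA3 and CCNA2 lost calls. TOP2A gained calls in both comparisons with the mean over probe sets and without the suffixed probe sets. PSRC1, CENPA, TPX2 and MKI67 have only suffixed probe sets and dropped out of the latter setting. Between the treated arrays 0 members were called under each of these alternatives. With TTTAAA added to the CHR letters, 33 in place of 28 member promoters held a match. A shift was judged against the median standard deviation over probe sets of a member (0.12, 0.14 and 0.10 in the 3 comparisons), since no condition has replicates. No paired analysis was possible because each condition has 1 array and the labels carry no replicate numbers. Leaving out a replicate was not possible for the same reason.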
